A study of Rattus norvegicus with 20 samples.

Results

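Gene expression in the left ventricle (LV) was compared between male rats that received monocrotaline (MCT) and male rats that received saline. The comparison was made on the 10 LV libraries of 20 in all, which were chosen by the ventricle and treatment in their labels. There were 5 libraries of LV MCT and 5 of LV saline, each with a replicate number from 1 to 5. MCT rats had received 60 mg/kg of MCT once they weighed 250 g, and the controls had received saline. Per the labels, rats were killed at a discomfort score of 7 or more. The sources used here give neither strain nor age, and no group carried a transgene or deletion by its label. Whole frozen ventricles were ground up, so each library mixed all cell types of the ventricle wall, and fewer cells of a type cannot be told apart from less RNA per cell.

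MCT is a plant alkaloid that the liver turns into a reactive product which injures the vessels of the lung. The lung arteries narrow, and the right ventricle (RV) pumps against a raised pressure, thickens and fails. The LV is not loaded by that pressure. It shares the septum with the RV, is filled by the blood that has passed the lungs, and is exposed to the same circulating signals in a sick animal. The comparison addresses how far the LV changes its messenger RNA in this model.

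Messenger RNA was read from the 3′ ends of transcripts (QuantSeq), and the values were read counts per gene. The LV libraries held 3294947 to 9227104 counts, and between 13542 and 15760 genes were detected with 1 count or more. Genes were listed by Ensembl ID, and the reference gene table used here matched 0 of the 30452 IDs. No gene is therefore named by symbol, and heart muscle markers, markers of other cell types and pathway genes were not examined. In their place, the response is described by the direction, size and level of its genes, by library, and with 2 IDs that rose and 2 that fell.

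One library stood apart from its group. In LV MCT replicate 3 the median absolute log2 distance from the mean of the other 4 LV MCT libraries was 0.431, and its distance from the LV saline mean was smaller, at 0.326. The other 9 LV libraries each lay nearer to their own group than to the other one, with distances of 0.175 to 0.373 against 0.321 to 0.471. LV MCT replicate 3 had 4024773 counts, which was neither the lowest nor the highest of its group. It had 14125 genes detected, the fewest of its group, against 14259 to 15760 in the other LV MCT libraries and 13542 to 14611 in LV saline. The 10 genes with most counts took 50.2% of it, against 25.7% to 40.7% of the other LV MCT libraries and 35.6% to 47.9% of the LV saline libraries. Values without it are given beside the main results.

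MCT changed 1040 of 10929 tested genes in the LV, or 9.52% (edgeR quasi-likelihood test, adjusted p under 0.05). Of these, 596 genes, or 5.45% of those tested, were higher after MCT and 444, or 4.06%, were lower. The rises were larger than the falls. The middle 50% of the higher genes had log2 fold changes of 0.88 to 1.704 and reached 5.81, and the middle 50% of the lower genes had -0.99 to -0.65 and reached -3.16. Across all tested genes the median log2 fold change was 0.03, and 90% of the genes lay between -0.73 and 1.07. No gene had an adjusted p under 0.001 and 74 had one under 0.01, the smallest being 0.0075.

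The direction of the response is relative to the scaling of the libraries. The main scaling, TMM, sets library sizes so that most genes do not change on average. Its factors were 1.08 to 1.32 in LV MCT replicates 1, 2, 4 and 5, 0.788 in LV MCT replicate 3, and 0.815 to 0.934 in the LV saline libraries. With scaling to total counts alone, an alternative chosen after seeing the data, log2 fold changes shifted upward by a median of 0.36. That scaling called 2142 genes, of which 2051 were higher and 91 lower. All 1040 genes called with TMM had the same sign with total counts, but their smallest fall, -0.41, exceeded the median shift. Of them, 684 were also called, 596 of the higher and 88 of the lower genes. Falls are therefore to be read relative to the bulk of genes.

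The precision of the fold changes was moderate. The 95% interval of a log2 fold change had a median half-width of 0.51. In 7030 genes, or 64.3% of those tested, the whole interval lay within 2-fold of no change, and in 2438 genes, or 22.3%, it lay within 1.5-fold. Of the 9889 genes not called, 2997, or 30.3%, had an interval that reached 2-fold or more, so a change of that size was not excluded in them. Of the called genes, 97 had an interval wholly above a 2-fold rise and 7 wholly below a 2-fold fall, while 138 had one that stayed within 2-fold.

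**Figure D1:**
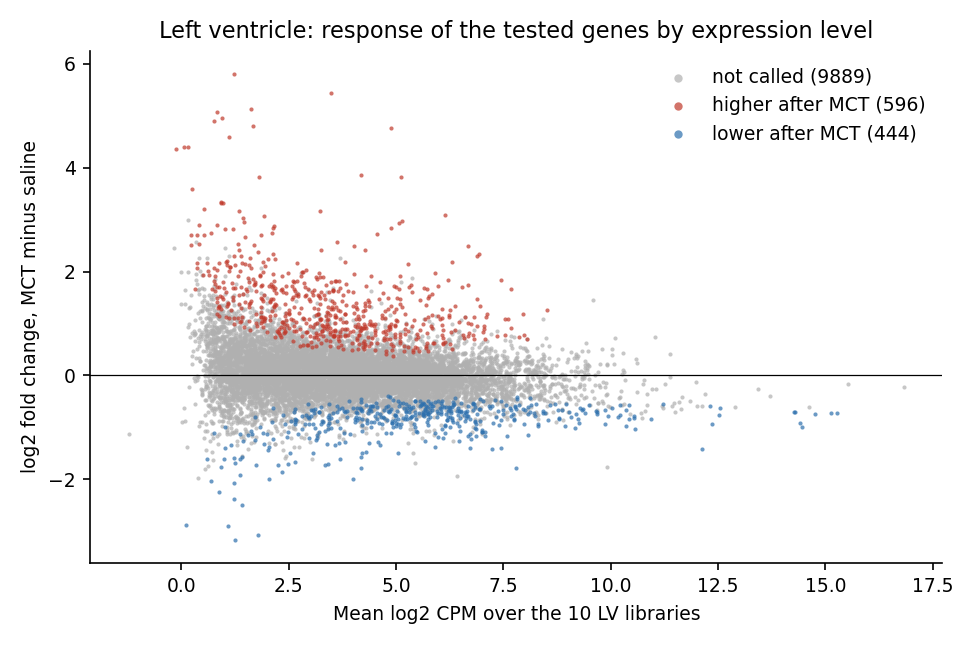
Each point is 1 of 10929 tested genes in the left ventricle, with its mean log2 CPM over the 10 LV libraries on the x axis and its log2 fold change (MCT minus saline) on the y axis; the 596 genes called higher are red, the 444 called lower are blue and the 9889 not called are grey. The largest rises lie at low levels, while the called genes at the highest levels are all lower after MCT with TMM scaling.

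Among strongly expressed genes most calls were falls, and among weakly expressed genes most were rises, relative to the bulk of genes. Levels are CPM, counts of a gene scaled to a fixed library total, which in 3′-end libraries are not divided by transcript length. Among the 168 genes with a mean log2 CPM of 9 or more, 42, or 25%, were called lower and 0 were called higher by edgeR. In this class the median log2 fold change was -0.41 relative to the median of all tested genes. Among the 602 genes from 7 to 9, 59 were lower and 18 higher. In the 2254 genes from 5 to 7, 156 were lower and 101 higher. The order was the opposite below that: 122 lower and 225 higher among 3834 genes from 3 to 5, and 65 lower and 252 higher among 4071 genes under 3.

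The call counts by level also follow the precision, since the median standard error (SE) was 0.33 under a log2 CPM of 3 and 0.19 to 0.22 in the higher classes. The gradient itself was seen in the median log2 fold changes relative to all tested genes, which were 0.10, 0.0021, -0.084, -0.15 and -0.41 from the lowest to the highest class. Without LV MCT replicate 3 they were 0.11, -0.0013, -0.080, -0.14 and -0.48. Within May and June the highest class had -0.16 and the lowest 0.088, and within November they had -0.72 and 0.17. The calls in the highest class depended on the scaling and on single libraries. With total counts alone, 7 of the 168 genes were lower and 9 higher. The number lower was 12, 13 and 9 without LV MCT replicate 1, 4 or 5, and 17, 13 and 19 without LV saline replicate 3, 4 or 5. Without LV MCT replicate 3, 59 were lower and 2 higher.

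**Figure D2:**
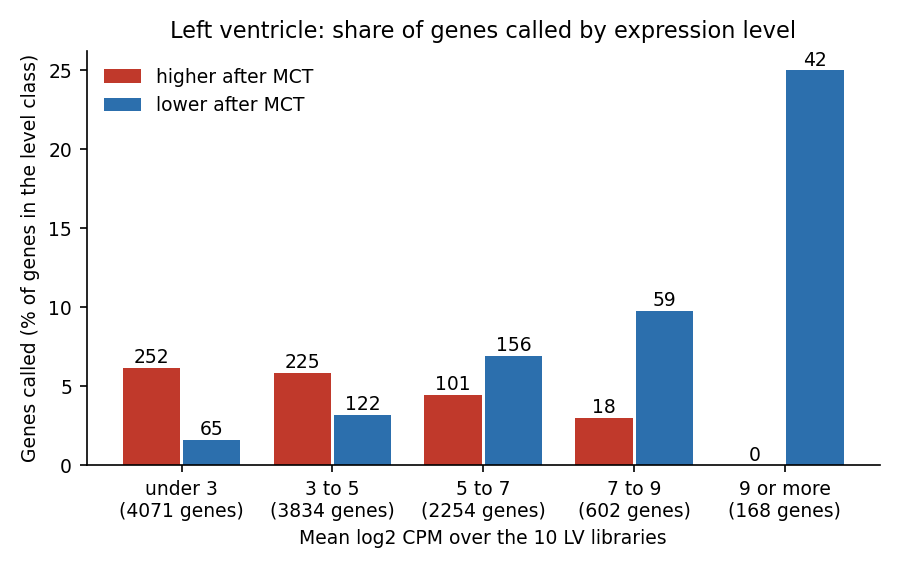
Bars give the share of genes called higher (red) or lower (blue) after MCT in 5 classes of mean log2 CPM over the LV libraries, with the number of genes above each bar. Genes called lower make up 25% of the highest class and 1.60% of the lowest, and genes called higher 0% and 6.19%, with TMM scaling; with total counts 7 genes of the highest class are lower and 9 higher.

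The most abundant transcripts were mostly at lower levels after MCT. They were ranked by the saline libraries that they were then compared with, which favours falls. Of the 10 genes with the highest CPM after saline, 7 were called lower and 0 higher (edgeR), and their log2 fold changes ran from -1.0 to -0.16. Together the 10 genes took 42.3% ± 5.38 (SD, n = 5) of an LV saline library and 35.8% ± 9.68 of an LV MCT library, or 32.2% ± 6.25 (n = 4) without LV MCT replicate 3. Of the 100 most abundant genes, 31 were called lower and 0 higher, with a median log2 fold change of -0.56, and their share was 62.9% ± 3.08 against 54.5% ± 7.99. Ranked by the mean of both LV groups instead, an alternative added after seeing the data, the 10 genes were the same and 97 of the 100 were shared, with 30 of the 100 lower and 0 higher. With total counts alone, 6 of the 100 ranked by saline were lower and 2 higher, with a median of -0.25 while all tested genes had 0.39. Of these 100, 46 were lower without LV MCT replicate 3, with a median of -0.69. Only 7, 7 and 5 were lower without LV MCT replicate 1, 4 or 5, and 11, 9 and 16 without LV saline replicate 3, 4 or 5. Within May and June edgeR called 0 of them, with a median of -0.36.

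The genes shown one by one were the 2 with the largest rise and the 2 with the largest fall among called genes whose mean log2 CPM was 3 or more and whose LV groups did not overlap. There were 140 such higher genes and 236 lower ones, and the values of these 4 were the largest by choice. ENSRNOG00000012660 was at 7.21, 8.05, 5.78, 7.85 and 5.80 CPM in LV saline replicates 1 to 5. After MCT it was at 175 CPM in replicate 1, 86.1 in replicate 2, 16.4 in replicate 3, 192 in replicate 4 and 482 in replicate 5. The saline libraries were close together, while the MCT libraries spread widely with replicate 3 the lowest and nearest to saline. Its log2 fold change was 4.77 (SE 0.86, edgeR adjusted p = 0.0075).

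ENSRNOG00000012471 was at 4.07, 4.201, 7.79, 5.42 and 5.31 CPM in LV saline replicates 1 to 5. In LV MCT it was at 109.6, 62.7, 9.16, 119 and 84.9 CPM in the same order of numbers. Again LV MCT replicate 3 was just above the saline range and the other 4 MCT libraries were far above it. The log2 fold change was 3.85 (SE 0.76, edgeR adjusted p = 0.0087).

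ENSRNOG00000019719 fell from 35.5, 30.8, 43.0, 31.4 and 40.1 CPM in LV saline replicates 1 to 5 to 4.12, 10.8, 24.6, 6.499 and 1.65 CPM in LV MCT replicates 1 to 5. For ENSRNOG00000002916 the values were 38.3, 36.1, 44.0, 30.6 and 33.3 CPM after saline and 4.62, 7.69, 29.7, 7.63 and 6.32 CPM after MCT. In both genes LV MCT replicate 3 was the highest MCT library, and for ENSRNOG00000002916 it was at 29.7 CPM, next to the lowest saline library at 30.6. The edgeR log2 fold changes were -2.00 (SE 0.55, adjusted p = 0.028) and -1.78 (SE 0.50, adjusted p = 0.030).

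Both genes that rose were called in each of the 10 fits that left out 1 LV library, with log2 fold changes from 4.06 to 5.07 and from 3.62 to 4.13. The genes that fell were called in 4 and 2 of these 10 fits. Their log2 fold changes ran from -2.63 to -1.77 and from -2.48 to -1.57. Both falls were largest without LV MCT replicate 3 (edgeR adjusted p = 0.0032 and 0.0019). ENSRNOG00000019719 was not called without LV MCT replicate 1, 4 or 5 or LV saline replicate 3, 4 or 5 (edgeR adjusted p up to 0.074). ENSRNOG00000002916 was called only without LV MCT replicate 3 or LV saline replicate 2, and otherwise had an adjusted p up to 0.082. Both genes that fell also lost their call without a filter on low counts (adjusted p = 0.075 and 0.072), and all 4 genes did within May and June (adjusted p from 0.28 to 0.41). Over all 31 alternatives no direction was reversed. These genes were chosen for LV groups that did not overlap, so a subset of the libraries could hardly reverse them.

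**Figure D3:**
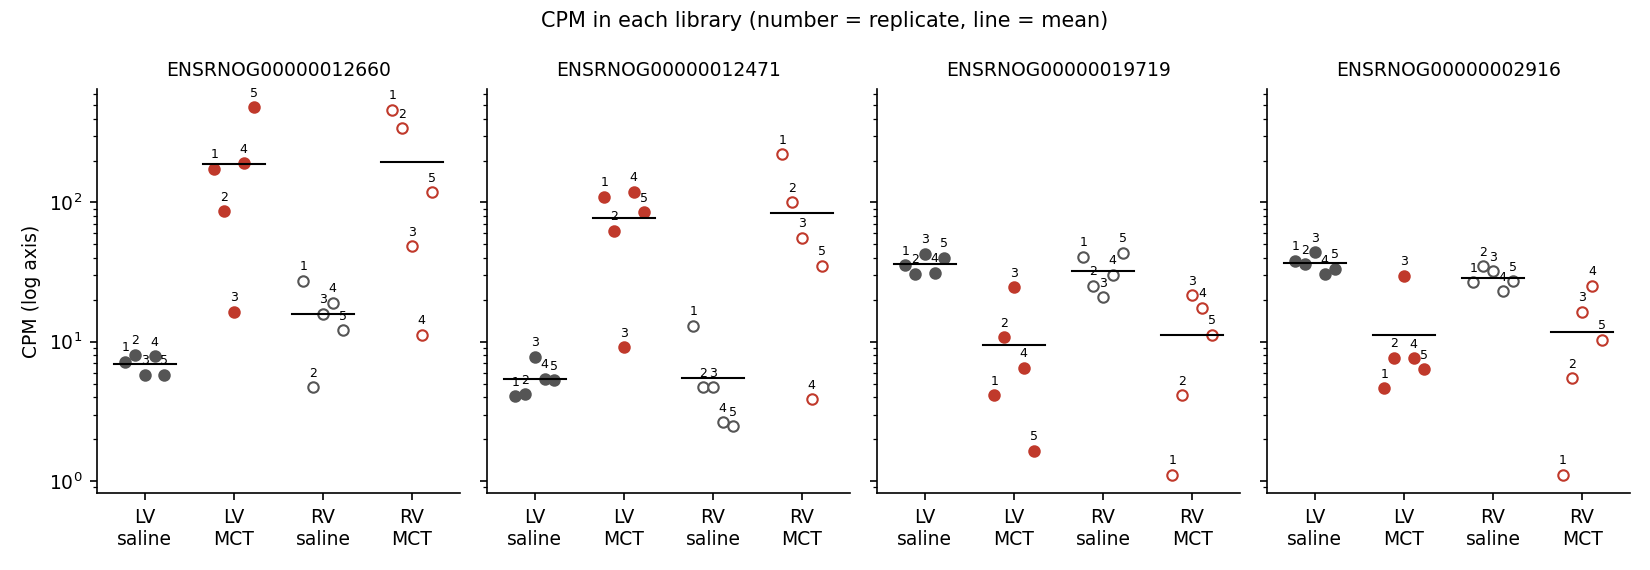
Points give CPM on a log axis in each library for 4 genes, labelled by replicate number, with filled points for the left ventricle, open points for the right, grey for saline, red for MCT and a line at each group mean (n = 5). In every panel LV MCT replicate 3 is the library of LV MCT nearest to the LV saline libraries, at 16.4, 9.16, 24.6 and 29.7 CPM.

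The called genes did not separate the LV groups in every library. In 262 of the 596 higher genes all 5 MCT libraries lay above all 5 saline libraries, and in 277 of the 444 lower genes all lay below. Over all tested genes the LV groups did not overlap in this way in 7.04%, made up of 3.21% upward and 3.82% downward, and the called genes were chosen by the same values. In 304 higher genes exactly 4 MCT libraries were above the saline range, and the exception was LV MCT replicate 3 in 264 of these. Each of the other MCT libraries was the exception in 4 to 13 genes. In 153 lower genes exactly 4 MCT libraries were below the range, and LV MCT replicate 3 was the exception in 132, the others in 3 to 9. A further 230 genes had no overlap between the groups but were not called.

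A description that does not use a library to choose the genes was made by refitting without it and reading its level afterwards. The genes read were those called without the library that were also tested with all 20 libraries. Without LV MCT replicate 1 there were 311 such higher genes, of 316 called, and 292 of the 311, or 93.9%, were above the saline range in that library. For LV MCT replicates 2, 4 and 5 this share was 91.6%, 99.0% and 92.1%. LV MCT replicate 3 was above the saline range in 327 of 909 such genes, or 36.0% (928 were called), where 22.8% of all tested genes were above it in that library. When a saline library was the one left out, it was above the range of the other 4 in 27.7% to 37.0% of the genes called higher without it, and in 14.3% to 28.8% of all tested genes. By this measure LV MCT replicate 3 lay within the values of the left-out saline libraries.

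For genes called lower, the share below the saline range was 93.7%, 84.0%, 97.2% and 95.3% in LV MCT replicates 1, 2, 4 and 5, where 19.2% to 27.2% of all tested genes were below it. It was 44.1%, or 339 of 769 genes (771 were called), in LV MCT replicate 3, where all tested genes gave 20.1%. In the left-out saline libraries it was 15.9% to 54.6%, where all tested genes gave 13.5% to 28.3%. In LV MCT replicate 3 the median log2 difference from the saline mean was 0.21 for genes called higher without it and -0.24 for those called lower, where the other MCT libraries averaged 1.11 and -0.84. In the remaining LV MCT libraries the medians, each on the genes called without that library, ran from 1.26 to 1.81 for higher genes and from -1.03 to -0.66 for lower genes. The saline libraries used for these differences also helped to choose the genes, and a left-out saline library was set against 4 libraries rather than 5.

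**Figure D4:**
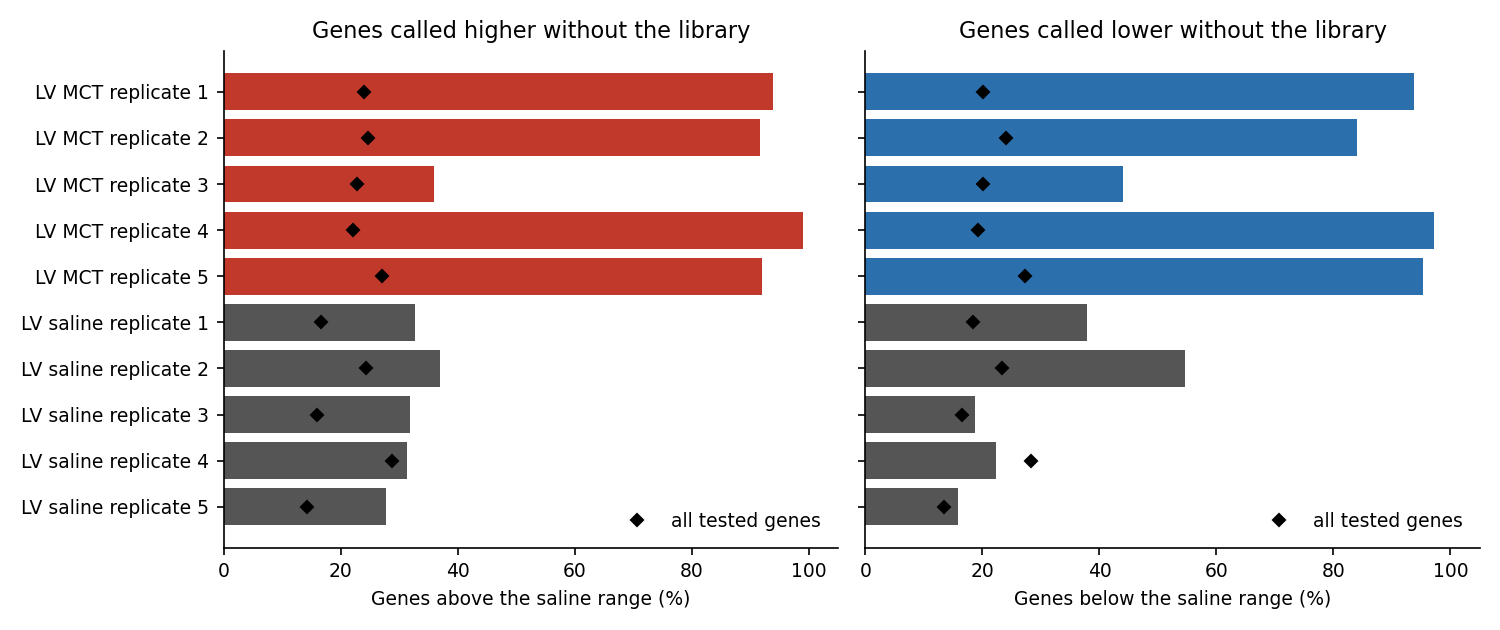
For each LV library (rows), bars give the share of genes called higher (left panel) or lower (right panel) without that library in which the library itself lay above or below the range of the saline libraries; coloured bars are MCT libraries, grey bars are saline libraries and diamonds give the same share over all tested genes. LV MCT replicate 3, at 36.0% and 44.1%, lies among the saline libraries, and the other 4 MCT libraries lie at 84.0% or above.

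With all 5 libraries of each group, LV MCT varied more than LV saline, and leaving out LV MCT replicate 3 alone reversed this order. The SD of log2 CPM within a group had a median over the tested genes of 0.37 in LV MCT and 0.33 in LV saline, and 6146 genes, or 56.2%, were more variable in LV MCT. Without LV MCT replicate 3 the median was 0.303 and 43.3% of genes were more variable in LV MCT. In the genes called higher the medians were 0.55 after MCT and 0.33 after saline, and in those called lower 0.34 and 0.24, with all 5 libraries. In the class with a log2 CPM of 9 or more they were 0.37 and 0.25. LV saline replicate 4 was the saline library farthest from its group, at a distance of 0.373. Leaving it out lowered the saline median to 0.28, below the 0.303 of LV MCT without replicate 3. Among genes not called, 54.2% were more variable in LV MCT. Leaving out 1 LV MCT library gave 42.2% to 59.6%, with 49.4% without LV MCT replicate 5.

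A smaller set of genes did not depend on any single LV library. Of the 596 higher genes 159, or 26.7%, were called in all 10 fits that left out 1 LV library, and of the 444 lower genes 98, or 22.1%. These 159 genes had a median log2 fold change of 1.73 and the 98 had -0.93. Their mean log2 CPM had medians of 3.16 and 5.73. Of the 159 genes 145 rose by more than 2-fold, and of the 98 genes 36 fell by more than 2-fold. Fits with 1 library fewer also have less power, so a lost call is not a sign that a gene did not change.

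The number of genes called rested on which libraries were fitted. It was 506, 470 and 331 without LV MCT replicate 1, 4 or 5 and 534, 450 and 483 without LV saline replicate 3, 4 or 5. Without LV MCT replicate 3 it was 1699, of which 1022 were among the 1040. Across all 31 alternatives, each tested gene among the 1040 kept its sign, but the genes were chosen on the same libraries, which favours this. With DESeq2 1421 genes were called, 1030 of them shared, and with limma voom 2911, 1028 of them shared. The limma voom fit also gave each library an estimated quality weight, which the edgeR and DESeq2 fits did not. The effect of these weights on the count was not tested.

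**Figure D5:**
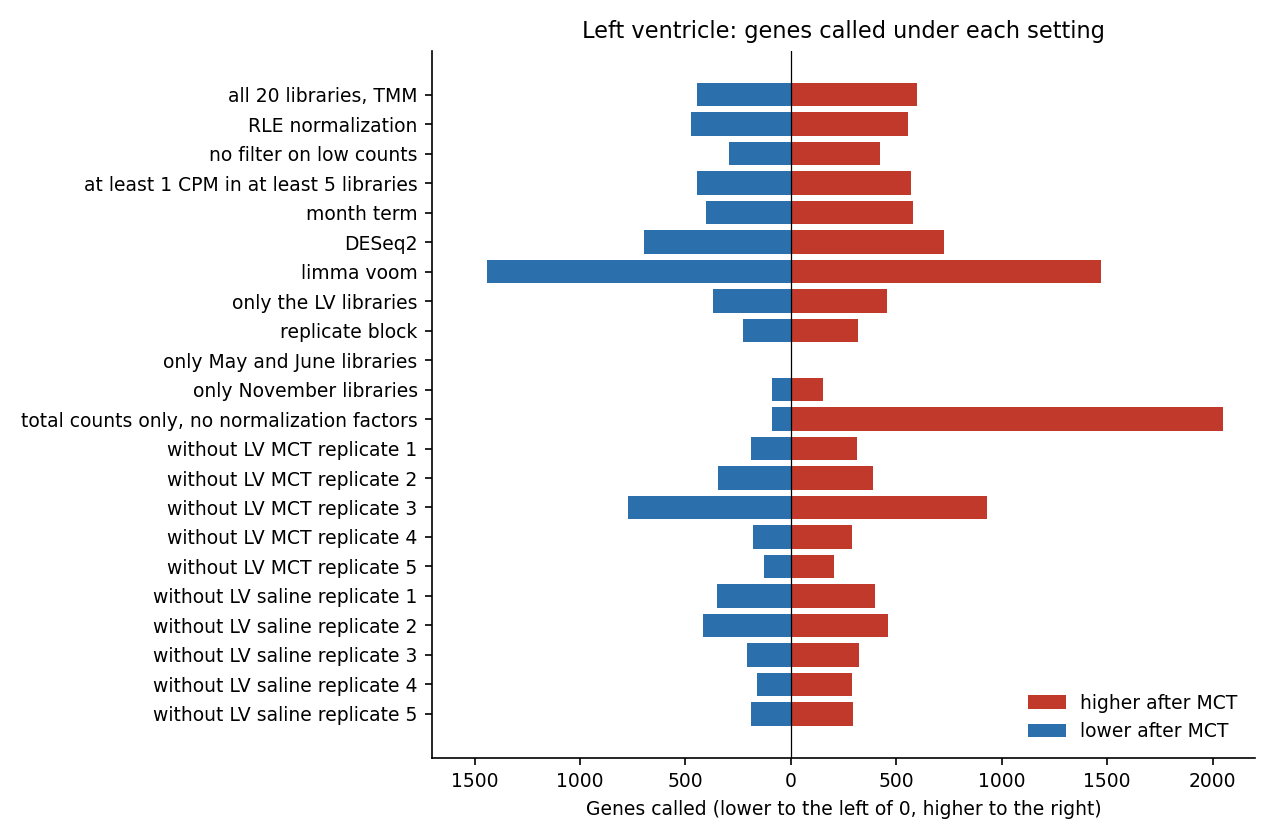
Bars give the number of left ventricle genes called higher (red, to the right) or lower (blue, to the left) after MCT with all 20 libraries and TMM scaling and under each alternative, including each LV library left out in turn. The counts run from 0 within the May and June libraries to 2911 with limma voom, which weighted each library. Total-count scaling gives 2051 higher and 91 lower genes.

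The description codes of the libraries look like dates, with 3 libraries of each LV group in May or June and 2 in November. Within May and June, which held LV MCT replicate 3, edgeR called 0 genes and 1329 had an unadjusted p under 0.05. Within November it called 243, of which 208 were among the 1040. In both sets all 596 higher genes had a higher mean after MCT and all 444 lower genes a lower one, with medians of 0.90 and -0.63 in May and June and 1.34 and -1.03 in November, though the genes were chosen on the same libraries. A fit with a month term, November against May and June together, called 982 genes, 946 of them shared. LV MCT replicate 3 was the only library of its group with a June code. May and June were not fitted without it, so effects of the month and of this library on these counts were not tested apart.

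Whether the LV differed from the RV in its response was tested for each gene. No gene was called for a difference (edgeR, smallest adjusted p = 0.85). An unadjusted p under 0.05 was found in 305 genes, or 2.79%, a smaller share than chance gives on average when no gene differs. DESeq2 and limma voom each called 1 gene. Same-numbered LV and RV libraries of a treatment carried the same description code apart from its first letter. Whether they came from the same animal is not stated, and the main fit took them as independent. With same-numbered LV and RV libraries as a block, edgeR called 0 genes, and 330 had an unadjusted p under 0.05. In the main fit the difference of the responses had a median SE of 0.35, against 0.25 for the LV response. It was thus measured less precisely, and the missing calls do not show that the ventricles responded alike. In ENSRNOG00000012660 the RV log2 fold change was 3.61 (SE 0.79, edgeR adjusted p = 0.052), which left a difference of 1.16 (SE 1.07) between the ventricles. In ENSRNOG00000012471 it was 3.88 (SE 0.74, edgeR adjusted p = 0.028), a difference of -0.03 (SE 1.02).

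The 2 genes that fell in the LV had RV log2 fold changes of -1.54 (SE 0.53) for ENSRNOG00000019719 and -1.33 (SE 0.49) for ENSRNOG00000002916, with edgeR adjusted p of 0.14 and 0.17. Their differences between the ventricles were -0.46 (SE 0.75) and -0.45 (SE 0.69). For all 4 genes the edgeR adjusted p of the difference was 0.99988. In the RV, ENSRNOG00000012660 was at 462, 341, 48.4, 11.2 and 118.5 CPM in MCT replicates 1 to 5 and at 4.71 to 27.4 CPM after saline. There RV MCT replicate 4 lay within the saline range and RV MCT replicate 3 above it. RV MCT replicate 4 also lay within the RV saline range in ENSRNOG00000012471 (3.85 CPM) and ENSRNOG00000002916 (25.2 CPM). In ENSRNOG00000019719 RV MCT replicate 3 lay within that range, at 21.5 CPM, and RV MCT replicate 4 below it, at 17.5 CPM.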

How the data were processed

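The tools named per the submitters' processing notes were HTSeq 0.11.3 and STAR 2.7.10a, and the builds rn6 and mRatBN7.2 stand there with no role. The authors deposited raw read counts per Ensembl gene with no normalization. The sources used here do not give the strand setting, the annotation release or how sequencing runs were joined, so overlapping genes and near-identical copies could share counts. All columns matched a sample by its description code, and 0 rows lacked a gene ID.

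The test was that of edgeR 4.0.16 (R 4.3.3): TMM, filterByExpr, a robust quasi-likelihood fit of 4 group means over 20 libraries, and Benjamini-Hochberg adjustment over all 10929 genes tested (threshold 0.05). They held 99.8% of LV counts. SEs were derived from the F statistic. CPM used TMM library sizes, and log2 CPM a prior count of 2. Alternatives used DESeq2 1.42.0 and limma 3.58.1 (voom with library quality weights) among others. The code was tested on simulated data. The rule for single genes asked for a symbol, and its form without symbols was used. The members, lists and rules were chosen with earlier results of these data known. The gene lists by symbol could not be applied. Whether each library is a separate animal is not stated, and p-values therefore measure only library-to-library spread. No 2 LV libraries of a group were identical, and the chi-square per degree of freedom was 4.87 to 136.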

Additional observations from a re-analysis of the deposited data

Results flagged for a closer look

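Of 32 sets of 5 values examined (CPM of the 4 genes in each group, and 8 measures of the LV libraries), 5 had a library whose gap to the next one was more than 0.71 of the range of its group. Chance gives about 1 in 20. LV MCT replicate 3 was far from its group in ENSRNOG00000002916, at 29.7 CPM, and in the share of counts held by the genes called higher, at 0.976%. LV MCT replicate 5 was lowest in the share held by the genes called lower, at 19.3%. LV saline replicate 5 was highest in the share held by the genes called higher, at 0.947%. RV saline replicate 1 was highest in ENSRNOG00000012471, at 13.0 CPM. Both shares are over genes chosen on these libraries.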

How the results depend on the processing

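The LV count of 1040 genes was within 1.5 times of its value with RLE normalization, both other filters on low counts, the month term, DESeq2 and the LV libraries alone. The LV libraries alone gave 827 genes, 722 of them among the 1040, of which 935 were tested in that fit. Without a filter on low counts 714 were called, 672 of them shared. The count was 2911 with limma voom, 243 within November, 0 within May and June (edgeR), and 2142 with total counts. Leaving out 1 of the 20 libraries gave 331 to 1699. The difference of the LV and RV responses gave 0 genes with edgeR under each setting run and 1 with DESeq2 or limma voom. It was 0 in each fit that left out 1 library. Total counts change the scaling; for the others the cause was not tested. Depth limits the weakly expressed genes most.

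With the replicate block, joining same-numbered MCT and saline libraries, 549 LV genes were called, 518 of them among the 1040. Same-numbered MCT and saline libraries came from rats given different treatments, so they cannot share an animal, and their description codes mostly differed. The numbers are not stated to mark a shared day, so this block is a pairing by number alone. The correlations of deviations of same-numbered libraries ran from -0.32 to 0.22, with 1 of 5 MCT libraries matching its own number best. The match was number 4, at 0.22, the only such LV pair whose description codes carried the same digits. A link to the code was not tested. With same-numbered RV and LV libraries as the block, which shared their description code apart from its first letter, the difference of responses gave 0 genes.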
